A study of Rattus norvegicus with 13 samples.

Results

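Oligodendrocytes were compared with microglia on 6 of the study's 13 arrays, 3 of each cell type, over every rat microRNA (miRNA) that was detected on at least 3 of those 6 arrays. The rule chose 206 of the 350 rat miRNAs on the array, and the species prefix rno- is left off their names. The study profiled miRNAs of neurons (n = 3), astrocytes (n = 4), oligodendrocytes (n = 3) and microglia (n = 3), all grown as primary cultures of cortex taken on postnatal day 1, to find miRNAs particular to each type. Both groups compared here came from the supernatant of mixed cortical cultures, and no treatment, transgene or deletion is named for either. Microglia were the cells that float above a confluent astrocyte layer, and per the culture protocol they were collected at 7 days in vitro. Oligodendrocytes were taken at 10 days, after a wash and a shake of 30 to 60 min, and were then plated on poly-lysine. The sample descriptions give 10 days for both types, so the age of the microglia is stated in more than one way. Strain, sex and the number of animals behind a culture are not given in the sources used here. The study calls the samples biological replicates, and the p-values below measure only the spread between them. All 3 oligodendrocyte arrays lay on slide 1 and all 3 microglia arrays on slide 2, so slide and cell type cannot be told apart in any difference below.

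A miRNA is a short RNA that guides a silencing complex to messenger RNAs, and pairing of its seed, bases 2 to 8, does most to choose the targets. Oligodendrocytes are the myelin-forming cells of the brain. miR-219 and miR-338 are known from mouse to promote their differentiation by repressing factors that hold precursors in an immature state. Microglia are the resident macrophages of the brain and descend from the blood lineage, in which miR-142, miR-223 and miR-150 are abundant. miR-146a is induced by NF-kB and restrains inflammatory signalling. miR-9 and miR-124 are enriched in neural tissue, where they promote neuronal differentiation.

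Mature sequences of 109 of the 206 miRNAs were found in the RefSeq annotation of build GRCr8, 69 of them under the newer name of the arm. The leading miRNAs of each cell type are shown first, 5′ to 3′, with the seed in capitals. The following stood far higher in oligodendrocytes.
miR-9: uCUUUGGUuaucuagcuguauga
miR-9*: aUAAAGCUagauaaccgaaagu
miR-338: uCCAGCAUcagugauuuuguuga
miR-138: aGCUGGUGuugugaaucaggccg
miR-384-5p: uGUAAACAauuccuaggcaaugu
The next ones stood far higher in microglia, and miR-146a and miR-146b share one seed.
miR-146a: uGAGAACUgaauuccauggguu
miR-146b: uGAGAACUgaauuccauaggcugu
miR-223: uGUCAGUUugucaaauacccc
miR-142-3p: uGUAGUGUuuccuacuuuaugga
miR-126: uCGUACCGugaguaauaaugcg
miR-200c: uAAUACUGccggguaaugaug
miR-21: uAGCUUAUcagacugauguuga
A further set is shown because its members share a seed, and often all but 1 base, yet were measured at different ratios between the cell types. These are the let-7 members, the paralogs miR-23a and miR-23b, miR-27a and miR-27b, miR-130a and miR-130b, and a group with the seed AGCAGCA.
let-7a: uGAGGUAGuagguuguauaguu
let-7f: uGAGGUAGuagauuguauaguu
let-7c: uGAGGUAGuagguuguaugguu
let-7b: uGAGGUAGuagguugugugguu
let-7e: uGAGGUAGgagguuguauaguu
miR-23a: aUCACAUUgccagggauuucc
miR-23b: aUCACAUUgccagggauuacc
miR-27a: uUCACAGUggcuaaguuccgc
miR-27b: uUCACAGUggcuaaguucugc
miR-130a: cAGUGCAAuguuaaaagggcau
miR-130b: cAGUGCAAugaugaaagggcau
miR-15b: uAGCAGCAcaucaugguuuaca
miR-16: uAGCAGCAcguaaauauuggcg
miR-322: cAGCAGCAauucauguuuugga
miR-497: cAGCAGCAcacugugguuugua

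Each array received 100 ng of total RNA labelled with the dye Cy3, and the scanner software of the authors gave each spot an intensity and each miRNA a detection call. Levels are log2 of a miRNA's mean intensity over the array's own 75th percentile, so 0 is that percentile, and values were floored at -8.04. The oligodendrocyte arrays detected 193 to 201 miRNAs and the microglia arrays 160 to 176, with means of 196.7 ± 4.04 and 170.7 ± 9.24 (SD, n = 3 each). The 2 sets did not overlap, but 3 against 3 arrays cannot go below the p of 0.1 that a two-sided exact permutation test gave (n = 3 each). The lowest detected level ran from -8.13 to -7.62 on oligodendrocyte arrays and from -7.67 to -6.79 on microglia arrays, and these ranges overlap. Across the 206 miRNAs, arrays of one type correlated at r = 0.969 to 0.998, and arrays of different types at 0.58 to 0.621. Oligodendrocyte array 2 lay farthest from its group's mean for 165 of the 206 miRNAs. Array 2 was the highest of the 3 for 9 of 12 tested neuron-associated and 6 of 8 myeloid-associated miRNAs, against 117 of all 206. Of the 7 oligodendrocyte-associated miRNAs it was the highest for 3 and the lowest for 3, among them miR-338 and miR-219-5p. It was the lowest for 67 of all 206.

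Oligodendrocytes and microglia differed at most of the miRNAs they expressed. By at least 2-fold and with an adjusted p under 0.05 (limma, Benjamini-Hochberg over 206 miRNAs), 59 miRNAs (28.6%) were higher in oligodendrocytes and 59 (28.6%) were higher in microglia, 57.3% in all. On the adjusted p alone, 67 (32.5%) were higher in oligodendrocytes and 74 (35.9%) in microglia, 68.4% in all. The arrays of the groups did not overlap for 73.8% of the miRNAs. The median difference over all 206 was 0.06 in log2, as oligodendrocytes minus microglia. Without any scaling between arrays, the split of calls was 79 against 47 and the median difference 0.61, so 62.7% of calls were then higher in oligodendrocytes, against equal numbers with scaling. Of the 137 miRNAs detected on all 6 arrays, 27 (19.7%) were called higher in oligodendrocytes and 44 (32.1%) in microglia, with a median difference of -0.27. A further 29 were detected on all 3 oligodendrocyte arrays and on no microglia array, and 25 of those were called. In the other direction 11 were detected on all microglia arrays alone, and all 11 were called. These 40 entered the comparison through one cell type only, which favours a call, so their calls describe detection and support nothing further. Detection did not fix the level, and 4 of the 29 were not called, such as miR-92b at 0.35 (adjusted p = 0.623). Where every array of a group sat at the floor, its spread was 0 by construction, and no p is printed for such a miRNA below unless another setting ended its call. At the edge of the rule, the 42 miRNAs detected on exactly 3 of the 6 arrays reached highest levels of -7.42 to 1.21, and the 9 detected on 2 arrays, which were left out, -6.45 to -4.34.

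**Figure D1:**
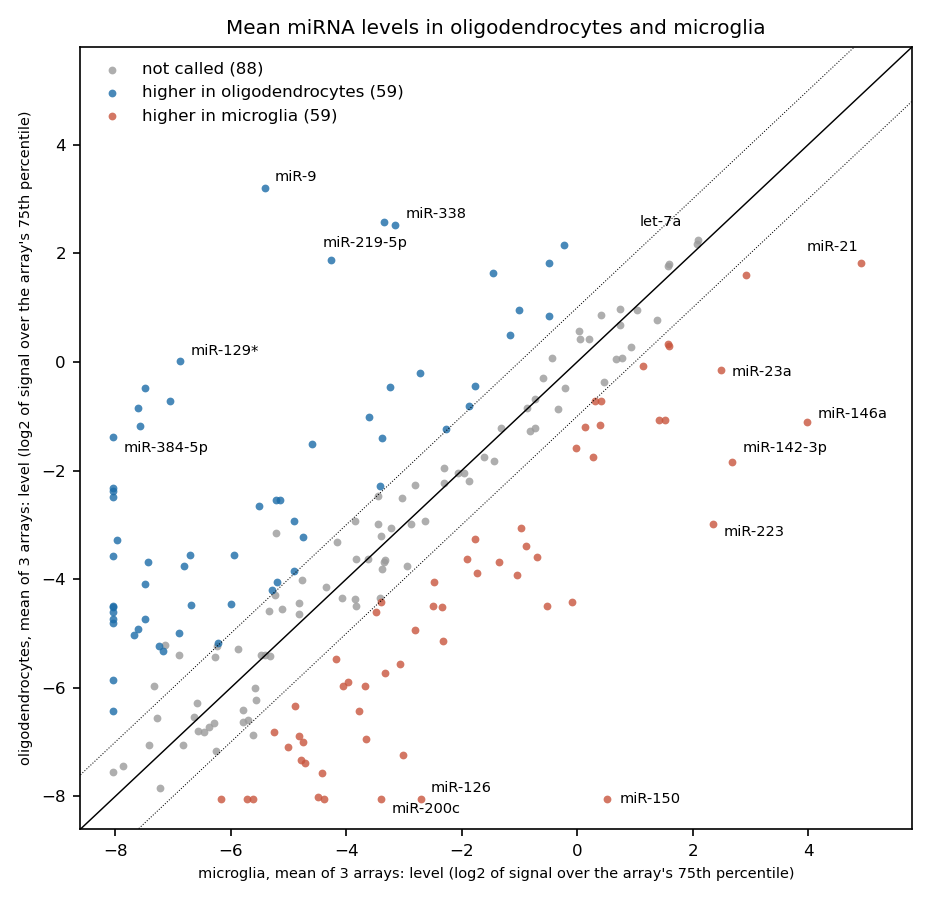
Mean level of each of the 206 miRNAs in microglia (horizontal) and oligodendrocytes (vertical), 3 arrays each, in log2 of signal over the array's 75th percentile, with equality as a solid line and 2-fold differences as dotted lines. The 59 miRNAs called higher in oligodendrocytes lie above the diagonal and the 59 called higher in microglia below it, while let-7a lies close to it and miRNAs at -8.04 sit at the floor.

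miRNAs known for oligodendrocyte differentiation were much higher in the oligodendrocyte arrays. Of the 7 miRNAs of the oligodendrocyte-associated list, 5 were higher in oligodendrocytes, 1 was higher in microglia and 1 was not called. The median difference was 5.68 against 0.06 over all 206, of which 28.6% were called in each direction. Of the 5, miR-219-2-3p and miR-138 were detected on no microglia array and passed the filter through oligodendrocytes alone. miR-219-5p, whose probe the files place at rn4 chr20:4967821-4967841 (plus strand), stood at 2.09, 1.59 and 1.95 in oligodendrocytes and at -4.79, -3.45 and -4.58 in microglia. It was 71.1-fold higher in oligodendrocytes (log2 6.15 ± 0.38 SE, limma adjusted p = 3.64e-05). All 3 oligodendrocyte arrays were far above all 3 microglia arrays, and array 2 was the lowest of the oligodendrocyte arrays. miR-338, from an intron of the neural gene Aatk in mammals and placed at chr10:109426995-109427016 (minus strand), stood at 2.91, 1.87 and 2.80 against -3.25, -3.25 and -2.95, a 51.2-fold difference (log2 5.68 ± 0.303 SE, adjusted p = 2.12e-05). Again the groups were far apart and oligodendrocyte array 2 was the lowest of its group. miR-219-2-3p, the partner arm at a second miR-219 locus (chr3:8833918-8833933, minus strand), stood at -0.66, -1.20 and -0.71 in oligodendrocytes, and no microglia array detected it, so it was at least 74.6-fold higher. miR-138, which is known to act on an early step of oligodendrocyte differentiation in mouse, stood at -0.84, -0.52 and -0.79 and was likewise detected on no microglia array, which gives at least 75-fold. miR-338*, the minor arm of the miR-338 hairpin, was 6.72-fold higher (log2 2.75 ± 0.116 SE, adjusted p = 9.89e-06), with 2 of its 4 probes pointing the same way and 1 of 3 microglia arrays detecting it. With normexp background correction, which adds an offset of 50 to every intensity, its difference was 0.02 (adjusted p = 0.955). The exceptions were miR-32, at -4.43 ± 0.08 and -4.82 ± 0.32 (log2 0.40 ± 0.19 SE, adjusted p = 0.11; 0.57 without microglia array 1, adjusted p = 0.0204), and miR-23a, which was 6.24-fold higher in microglia and belongs to a cluster described below.

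A bulk array cannot tell a lower share of a cell type from less RNA per cell, and this holds for every level given here. Some signal of the oligodendrocyte miRNAs was present in microglia. miR-219-5p in microglia was at 1.41% of its oligodendrocyte level and miR-338 at 1.95%, each detected on 3 of 3 microglia arrays. In astrocytes the same miRNAs were at 17.3% and 30.9% of the oligodendrocyte level. The summed level of the whole list was 893% to 1390% of the 75th percentile on oligodendrocyte arrays and 576% to 597% on microglia arrays, but miR-23a alone made up 96.2% to 96.7% of the microglia sum. Without miR-23a the microglia sums were 19% to 22%.

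The largest differences in favour of oligodendrocytes belonged to brain-enriched miRNAs that are best known from neurons. Of the 12 tested members of the neuron-associated list, 9 were higher in oligodendrocytes, none in microglia, and 3 were not called. The share called over all 206 was 28.6% in each direction. Of the 9, 5 were detected on no microglia array and passed the filter through oligodendrocytes alone. The median difference was 5.60, or 4.70 with such members at their lower bound, and over all 206 it was 0.06, or 0.04 with bounds. miR-9, at chr1:135254152-135254170 (plus strand, the place the files give among 3 RefSeq loci), stood at 3.21, 3.17 and 3.25 in oligodendrocytes and at -5.43, -5.48 and -5.33 in microglia. The difference was 395-fold (log2 8.63 ± 0.112 SE, adjusted p = 1.12e-07), and the arrays within each group were nearly alike. Its partner arm miR-9*, which in neural cells targets a co-repressor and a chromatin subunit, stood at 2.59, 2.54 and 2.61 against -3.01, -2.84 and -4.18, a 60.8-fold difference (log2 5.93 ± 0.365 SE, adjusted p = 3.64e-05). Both arms were therefore high on every oligodendrocyte array, and miR-9* was lowest on microglia array 3. miR-124, which promotes neuronal identity, stood at -1.72, 1.21 and -0.94 in oligodendrocytes and was detected on no microglia array. It was at least 87.8-fold higher (log2 7.01 by the floored values). Array 2 was by far the highest, and the log2 difference was 6.16 without it and 7.63 without array 1. miR-129*, of a hairpin expressed in brain, stood at -0.17, 0.21 and -0.01 and was at least 97.6-fold higher. Its other arm miR-129 stood at -2.63, -2.09 and -2.42 and was at least 26.9-fold higher. Microglia arrays detected neither arm.

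Of further neural miRNAs, miR-153, miR-137, miR-384-5p and miR-325-3p were detected on all 3 oligodendrocyte arrays and on no microglia array. All 4 astrocyte and all 3 neuron arrays detected them as well. miR-153, which targets synuclein and synaptic genes, stood at -3.11, -1.18 and -2.68 and was at least 28.0-fold higher. miR-137, a regulator of neural progenitors, stood at -3.54, -1.22 and -2.72 and was at least 24.9-fold higher, with a log2 difference of 5.55 by the floored values that was 4.91 without array 2. In both, array 2 was the highest oligodendrocyte array. miR-384-5p, which regulates synaptic plasticity, stood at -1.24, -1.65 and -1.23, at least 54.0-fold above microglia, and miR-325-3p from the same stretch of the X chromosome stood at -1.13, -1.22 and -1.19, at least 59.4-fold. For these last ones array 2 was not above the other oligodendrocyte arrays. miR-128 stood at -1.70, -1.02 and -1.47 against -2.64, -4.09 and -3.38 (log2 1.97 ± 0.398 SE, adjusted p = 0.00493), and miR-218 was higher by 1.06 ± 0.343 SE (adjusted p = 0.0338). The call of miR-218 was lost without oligodendrocyte array 1, 2 or 3 (adjusted p = 0.0822, 0.082 and 0.0863), fell under 2-fold without microglia array 2 (0.67), and was lost with normexp background correction (0.05, adjusted p = 0.856). miR-132, miR-212 and miR-7a, of which the first pair is induced by neuronal activity, were not called, and their log2 differences were 0.95, -0.08 and -0.29. miR-132 had the widest spread, at -5.24, -3.13 and -4.50 in oligodendrocytes and -6.97, -3.12 and -5.64 in microglia, and array 2 was the highest in both groups.

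Several of these miRNAs were also high in astrocytes. miR-9 averaged 3.49 ± 0.05 in astrocytes (n = 4) and 4.22 ± 0.05 in neurons (n = 3), and miR-129* averaged -0.42 ± 0.09 and 2.92 ± 0.05. miR-384-5p averaged -1.82 ± 0.01 in astrocytes, and miR-325-3p -1.95 ± 0.06. By contrast miR-124 averaged -4.95 ± 0.06 in astrocytes and 3.13 ± 0.19 in neurons. The summed level of the 14 neuron-associated miRNAs on the array was 1760% to 2070% of the 75th percentile on oligodendrocyte arrays, 1730% to 1840% on astrocyte arrays, 5850% to 6090% on neuron arrays and 62.2% to 82.3% on microglia arrays. The part of neurons or astrocytes in the oligodendrocyte values was not tested.

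The miRNAs of the blood lineage were all higher in microglia. All 8 measured members of the microglia and myeloid-associated list were called higher in microglia. Their differences were 2.02 to 8.56 in log2 in that direction, with a median of -4.43 as oligodendrocytes minus microglia. Over all 206, 28.6% were called higher in microglia and the median was 0.06. Of the 8, miR-150 was detected on no oligodendrocyte array and passed the filter through microglia alone. miR-150, a regulator of lymphocyte maturation at chr1:95596098-95596113 (plus strand), stood at 0.94, -0.14 and 0.77 in microglia and was detected on no oligodendrocyte array, at least 318-fold higher. miR-223, a regulator of myeloid cells on the X chromosome, stood at 2.69, 1.70 and 2.67 in microglia and at -3.70, -2.02 and -3.23 in oligodendrocytes, a 40.4-fold difference (log2 5.33 ± 0.506 SE in favour of microglia, adjusted p = 0.000199). For both miRNAs microglia array 2 was the lowest of its group. miR-146a, at 3.85, 4.14 and 3.97 against -1.79, -0.19 and -1.36, was 34.3-fold higher in microglia (adjusted p = 0.00012). miR-142-3p, from a hairpin expressed throughout the blood lineage, stood at 2.87, 2.27 and 2.91 against -2.29, -1.21 and -2.04, a 23.1-fold difference (adjusted p = 8.55e-05). The groups did not overlap for either, and oligodendrocyte array 2 was the highest oligodendrocyte array for both. The other arm, miR-142-5p, was 20.1-fold higher in microglia, miR-146b 6.97-fold, miR-342-5p 4.22-fold and miR-342-3p 4.06-fold.

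Oligodendrocyte arrays held a low level of most of these myeloid miRNAs. miR-223 was at 2.48% of its microglia level, miR-146a at 2.92%, miR-142-3p at 4.33% and miR-142-5p at 4.97%, each on 3 of 3 oligodendrocyte arrays, while miR-150 was detected on none of them. miR-146b, miR-342-5p and miR-342-3p were at 14.4%, 23.7% and 24.6%. The summed level of the list was 90.1%, 204% and 110% of the 75th percentile on oligodendrocyte arrays 1, 2 and 3, and 2910% to 3370% on microglia arrays. Array 2 thus held the most myeloid signal of its group, and it also held the most neuron-associated signal and the least oligodendrocyte-associated signal. Astrocyte arrays, at 217% to 225%, held more myeloid signal than each oligodendrocyte array. The part of microglia in the oligodendrocyte values was not tested. Without oligodendrocyte array 2 the calls were 57 higher in oligodendrocytes and 59 higher in microglia, and 113 of the 118 calls were kept.

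**Figure D2:**
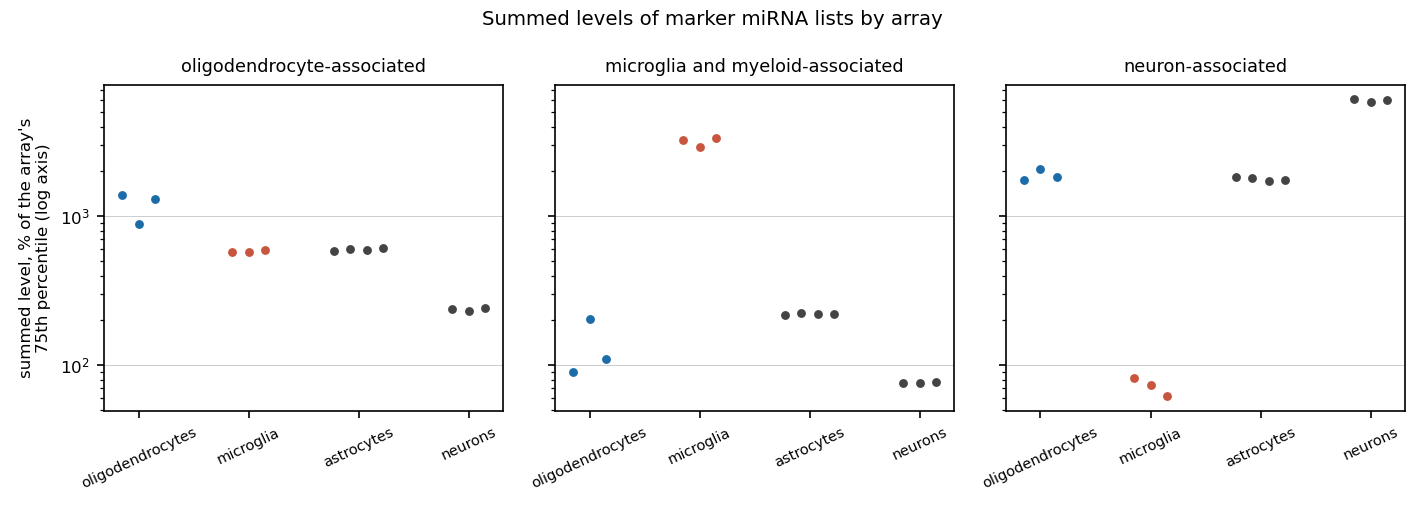
Summed level of the oligodendrocyte-associated (7 miRNAs), myeloid-associated (8) and neuron-associated (14) lists on each of the 13 arrays, as a percent of the array's 75th percentile on a log axis, with 1 point for each array. Microglia arrays are highest for the myeloid list at 2910% to 3370% and lowest for the neuron list at 62.2% to 82.3%, and oligodendrocyte array 2, the middle of the 3 blue points, is the lowest of its group for the first list and the highest for the others.

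miRNAs of other lineages were also found in microglia and not in oligodendrocytes. miR-126, from an intron of the endothelial gene Egfl7 and also expressed in blood cells, stood at -2.99, -2.41 and -2.74 in microglia and was detected on no oligodendrocyte array, at least 33.8-fold higher. Of the other endothelial and mural miRNAs, miR-126* was detected on 2 microglia arrays, and miR-143 and miR-145 on none of the 6. miR-200c and miR-141, epithelial miRNAs whose probes lie within 1 cluster at chr4:160840919-160841362 (minus strand), were detected on 3 of 3 microglia arrays and on no array of any other cell type. miR-200c stood at -3.64, -3.20 and -3.36, at least 21.0-fold above oligodendrocytes, and miR-141 at -4.37, -4.44 and -4.37, at least 10.5-fold. The family's remaining members miR-200a, miR-200b and miR-429 were detected on none of the 6 arrays. miR-451, an erythroid miRNA, stood at -5.95, -6.13 and -5.06 in microglia, at least 4.21-fold above oligodendrocytes. Neurons held more of it, with a mean of -4.64 on 3 of 3 arrays against -5.72 in microglia. miR-144 of the same erythroid hairpin cluster was detected on none of the 6 arrays. None of the 4 muscle miRNAs was detected on any of the 6 arrays. The part of endothelial, epithelial or red blood cells in the microglia values was not tested.

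Several further miRNAs, with known roles in stress, inflammation or the cell cycle, were higher in microglia. miR-21, which rises in activated and dividing cells of many kinds, stood at 5.07, 4.25 and 5.45 in microglia and at 1.47, 2.34 and 1.65 in oligodendrocytes, an 8.61-fold difference (log2 3.11 ± 0.382 SE in favour of microglia, adjusted p = 0.000577). miR-34a, a target of p53, stood at 1.39, 1.73 and 1.44 against -1.12, -1.01 and -1.08, a 6.01-fold difference (adjusted p = 2.12e-05). The groups were well apart for both. miR-221 and miR-222 are neighbours on the X chromosome that share the seed GCUACAU and repress the cell cycle inhibitor p27. They were 15.6-fold and 9.82-fold higher in microglia (adjusted p = 0.000702 and 0.000661). miR-222 stood at -7.50, -6.14 and -7.22 in oligodendrocytes, where 1 of 3 arrays detected it, so its fold rests in part on undetected levels. miR-130b stood at -2.57, -3.76 and -2.74 in microglia, where all arrays detected it, and exceeded oligodendrocytes, where none did, by at least 18.5-fold. The hypoxia-induced miR-210 was 3.81-fold higher (adjusted p = 0.00881). In all, 4 of 8 tested members of the stress and inflammation list were higher in microglia, none in oligodendrocytes, with a median of -1.27, where 28.6% of all 206 were called in each direction. miR-378 and miR-378*, from an intron of a metabolic coactivator gene, were 7.43-fold and at least 9.75-fold higher in microglia.

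**Figure D3:**
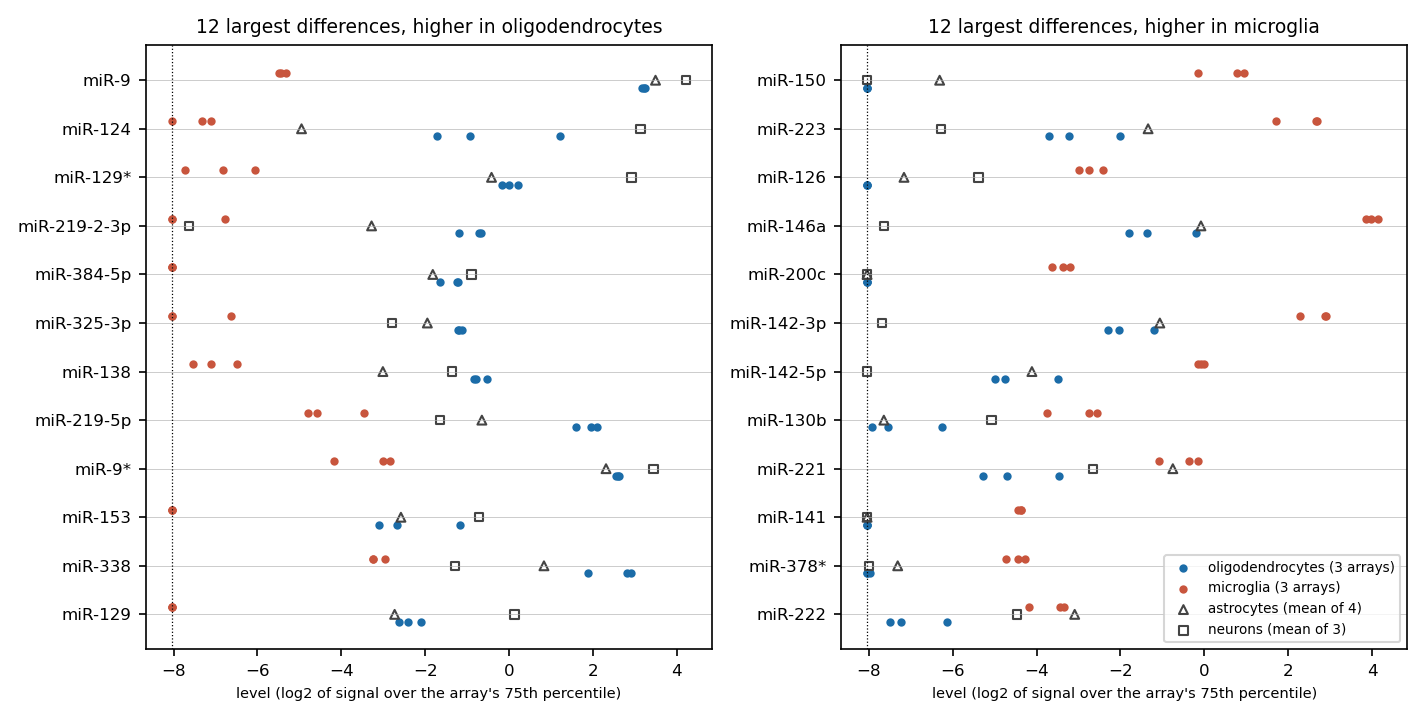
Levels of the 12 miRNAs with the largest difference in each direction on each of the 6 arrays, in log2 of signal over the array's 75th percentile, with astrocyte and neuron means as open symbols and the floor of -8.04 as a dotted line. The oligodendrocyte and microglia points of each miRNA lie apart, and for miR-9, miR-129* and miR-384-5p the astrocyte mean lies close to the oligodendrocyte points.

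Within the let-7 family, whose members share the seed GAGGUAG and restrain proliferation, the ratio between the cell types depended on the member. Of 9 tested miRNAs of the list, 4 were higher in oligodendrocytes and 5 were not called, with a median of 0.23. The share called higher in oligodendrocytes was 28.6% over all 206. let-7a stood at 2.21, 2.29 and 2.21 in oligodendrocytes and at 2.02, 2.06 and 2.19 in microglia, a difference of 0.15 ± 0.115 SE (95% interval -0.14 to 0.43, adjusted p = 0.302). let-7b stood at 1.58, 1.69 and 1.62 against -1.69, -1.28 and -1.41, an 8.52-fold difference (log2 3.09 ± 0.148 SE, adjusted p = 1.38e-05). let-7c stood at 2.09, 2.23 and 2.13 against -0.38, -0.11 and -0.19, a 5.19-fold difference (adjusted p = 2.14e-05). Thus let-7a was at nearly one level in both cell types while let-7b and let-7c were well apart. let-7e was 6.86-fold higher in oligodendrocytes (adjusted p = 0.000467) and miR-98 2.04-fold (adjusted p = 0.000308). let-7f, let-7d and let-7i differed by 0.10, 0.23 and -0.05, with adjusted p of 0.594, 0.161 and 0.777. let-7d passed the adjusted p with quantile normalization (0.54, adjusted p = 0.0104), with the deposited log2 values (0.48, adjusted p = 0.0114) and with the 75th percentile over miRNAs detected on all 6 arrays (0.35, adjusted p = 0.0446). let-7a passed it with the deposited values (0.38, adjusted p = 0.0351). All of these stayed under 2-fold. Counting from 1 at the 5′ end, let-7c differs from let-7a by A19G, let-7b by A17G and A19G, let-7e by U9G and let-7f by G12A. Probes may hybridize in part with such near copies, and how much was not tested here. The probes of let-7a, let-7f and let-7d lie in 1 cluster on chromosome 17 (chr17:22119781-22121982, plus strand), where none of the 4 tested arms was called.

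The miR-181 family, which is known from lymphocyte and neural development, was higher in oligodendrocytes throughout. All 5 tested arms were called higher in oligodendrocytes, against 28.6% of all 206, with a median of 2.61. Their differences ran from 1.94 for miR-181a to 2.85 for its partner arm miR-181a*. miR-181a stood at 0.99, 0.85 and 1.00 in oligodendrocytes and at -1.32, -0.68 and -0.99 in microglia (adjusted p = 0.000214). miR-181b, at 2.52, shares a cluster with it on chromosome 13, and miR-181c and miR-181d, at 2.67 and 2.61, share another on chromosome 19. Members of both clusters thus differed in the same direction and by like amounts. miR-125b-5p, a neural miRNA that keeps its target Lin28 low, was 4.99-fold higher in oligodendrocytes (adjusted p = 0.000379), miR-130a 3.17-fold (adjusted p = 0.000187) and miR-100 2.16-fold (adjusted p = 0.00177), the last falling to 0.96 in log2 without oligodendrocyte array 2 and missing the threshold with normexp correction (adjusted p = 0.061).

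Paralogous clusters of one family did not always move together. In the cluster of miR-23a, miR-27a and miR-24-2* (chr19:25638492-25638769, minus strand) all 3 arms were higher in microglia. miR-23a stood at 2.48, 2.47 and 2.53 in microglia and at -0.26, 0.06 and -0.25 in oligodendrocytes, a 6.24-fold difference (log2 2.64 ± 0.137 SE in favour of microglia, adjusted p = 1.91e-05). miR-27a, which shares the transcript, was 5.56-fold higher (adjusted p = 4.97e-05). In the paralogous cluster on chromosome 17 (chr17:7350974-7351724, minus strand), miR-23b stood at 1.23, 0.59 and 1.08 in oligodendrocytes and at 0.64, 0.99 and 0.59 in microglia, a difference of 0.23 ± 0.217 SE (adjusted p = 0.388). miR-27b differed by 0.54 ± 0.2 SE (adjusted p = 0.0518), and it passed with 1.10 without scaling (adjusted p = 0.0228) and with 0.74 without oligodendrocyte array 2 (adjusted p = 0.00434). The miR-23a cluster was therefore called and these members of its paralog were not, although miR-23b differs from miR-23a by U19A and miR-27b from miR-27a by C19U. Whether the differences of the paralogs differ from each other was not tested. The files place miR-24, made from both loci, on chromosome 17, and it was 2.37-fold higher in microglia (adjusted p = 0.000141), which was lost without scaling (-0.69, adjusted p = 0.0899).

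Among miRNAs with the seed AGCAGCA, calls went in both directions. miR-15b and miR-16, which repress cyclins and come from 1 cluster at chr2:158992256-158992420 (plus strand), were 2.32-fold and 2.49-fold higher in microglia. miR-16 stood at 2.92, 2.85 and 3.02 in microglia and at 1.54, 1.70 and 1.60 in oligodendrocytes (adjusted p = 0.000162), but without scaling neither passed, at -0.66 for miR-15b (adjusted p = 0.0971) and -0.76 for miR-16 (adjusted p = 0.0557). miR-497 stood at -4.12, -2.76 and -3.76 in oligodendrocytes and at -7.12, -5.78 and -7.22 in microglia, where 1 of 3 arrays detected it (log2 3.16 ± 0.523 SE, adjusted p = 0.00204), and with normexp correction it did not pass (0.50, adjusted p = 0.167). Its cluster neighbour miR-195 has the same seed and was not called (0.84 ± 0.326 SE, adjusted p = 0.0604), but it passed without scaling (1.40, adjusted p = 0.00147). miR-322, the rat counterpart of human miR-424, was 2.51-fold higher in oligodendrocytes (adjusted p = 0.000965). The same held for its cluster on the X chromosome (chrX:139995000-140000232, minus strand), where 5 of 7 tested arms were called higher in oligodendrocytes and none in microglia. Of all 206, 28.6% were called in each direction. The differences of the cluster ran from 0.74 for miR-503 to 2.39 for miR-322*. The 2 arms not called here, miR-503 and miR-351, passed without microglia array 1 and 3 respectively (1.02, adjusted p = 0.00861, and 2.31, adjusted p = 0.00257). With normexp correction miR-322*, miR-542-3p, miR-542-5p and miR-450a did not pass, at 0.40, 0.37, 0.01 and -0.01, and without microglia array 2 miR-450a was under 2-fold at 0.92. Of the 18 seeds shared by 2 or more of the miRNAs with a sequence, which cover 56 miRNAs, 3 had calls in both directions. The second was GUAAACA, where miR-384-5p was higher in oligodendrocytes and miR-30a 2.21-fold higher in microglia. The last was AGUGCAA, where miR-130a was higher in oligodendrocytes and miR-130b and miR-301b were higher in microglia, with U11A and A13G separating miR-130b from miR-130a. miR-301b was at the floor on all oligodendrocyte arrays, and its call was lost with the floor at the 5th percentile (-0.56, adjusted p = 0.175).

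The proliferation-linked cluster of miR-17-5p to miR-92a and its paralogs showed no called difference. Of 15 tested members none was called in either direction, against 28.6% of all 206 in each direction, and on the adjusted p alone 2 were higher in oligodendrocytes and 2 in microglia, with a median difference of 0.19. miR-19b stood at 1.81, 1.75 and 1.83 in oligodendrocytes and at 1.89, 1.24 and 1.68 in microglia (0.19 ± 0.191 SE, adjusted p = 0.402). miR-20a stood at 1.82, 1.66 and 1.82 against 1.85, 1.16 and 1.69 (0.20 ± 0.206 SE, adjusted p = 0.418). Their arrays overlapped, with microglia array 2 the lowest for both. miR-20a* was higher by 0.76 in oligodendrocytes (adjusted p = 0.00399), short of 2-fold, and miR-363 of the X-linked paralog was at -1.25 ± 0.511 SE (adjusted p = 0.0706), though -1.77 without microglia array 2 (adjusted p = 0.0087). Without scaling miR-92a was called at 1.01 (adjusted p = 0.0156). With the scaling used, the 8 tested arms of the cluster itself (chr15:99853756-99854509, plus strand) ran from 0.10 to 0.76, so all lay on one side of 0. With normexp correction miR-17-3p and miR-20a* were at -0.30 and -0.16. The 75th percentile over all miRNAs moved the median of all 206 from 0.06 to -0.13, so a common sign of small differences may rest on the scaling.

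The miR-29 and miR-30 families had calls in favour of microglia alone with the scaling used. Of 5 tested arms of miR-29, a repressor of collagen and DNA methyltransferase genes, 3 were higher in microglia and none in oligodendrocytes (median -1.30). These were miR-29c* at 4.77-fold, miR-29c at 2.51-fold and miR-29b at 2.46-fold, with miR-29c* detected on 1 of 3 oligodendrocyte arrays. Of 9 tested arms of miR-30, 3 were called higher in microglia, 5 more passed the adjusted p alone in that direction, and the median was -0.84. Over all 206, 28.6% were called and 35.9% passed the adjusted p in that direction, so the count called is near the background. miR-30b-5p stood at 0.24, 0.56 and 0.40 in microglia and at -1.15, -1.18 and -1.13 in oligodendrocytes, a 2.94-fold difference (adjusted p = 0.000127), and its neighbour miR-30d was 2.97-fold higher. Without scaling, miR-29b, miR-29c and miR-30a did not pass (-0.74, -0.77 and -0.59, adjusted p = 0.113, 0.0696 and 0.115), and miR-30e and miR-30e* turned to 0.01 and 0.22. Of 5 tested X-linked miRNAs listed with miR-532, 4 were higher in microglia, at 4.24-fold for miR-500, 4.53-fold for miR-532-5p, 5.60-fold for miR-532-3p and 7.43-fold for miR-652. The files place miR-652 on the other strand and far outside that cluster. The exception was miR-188, which did not pass the test at 0.46 but was at 1.01 without scaling (adjusted p = 0.014). miR-26b was 2.02-fold higher in microglia, which was lost without scaling (-0.46, adjusted p = 0.25), and it fell just under 2-fold without oligodendrocyte array 2 (-0.97) or microglia array 3 (-0.96), while miR-26a differed by -0.08 (adjusted p = 0.615).

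**Figure D4:**
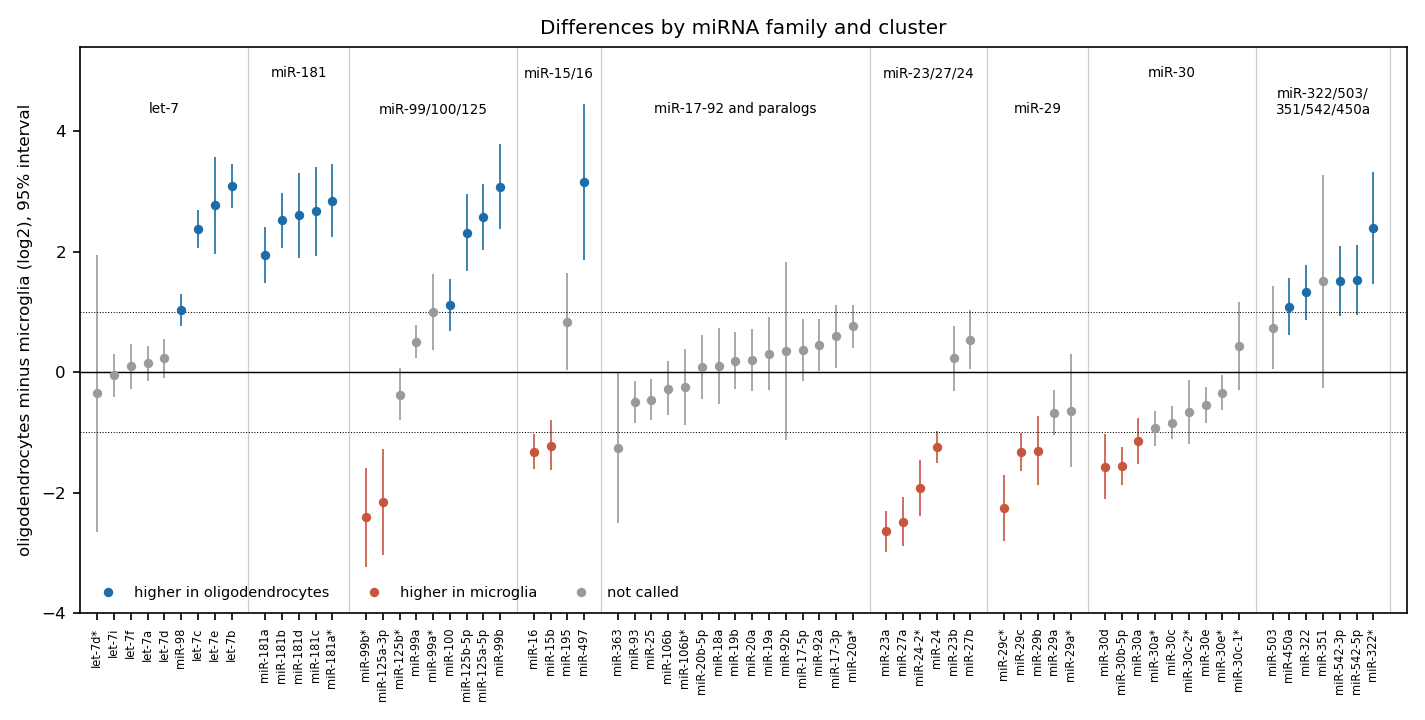
Difference of each tested miRNA in 9 families and clusters, as oligodendrocytes minus microglia in log2, with points for the estimates and bars for 95% intervals of single miRNAs, and with dotted lines at 2-fold. All 5 miR-181 arms lie above the upper line, the 15 members of the miR-17-5p cluster and its paralogs have no called difference, and within let-7 and miR-23/27/24 called and uncalled members lie side by side.

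By position, 77 of the tested miRNAs fell into 25 clusters whose probes lie within 10 kb on 1 strand of rn4. In 3 clusters all tested arms were called higher in oligodendrocytes, in 8 all were called higher in microglia, and in 7 none was called. Calls in both directions occurred in 1 cluster, that of miR-99b, let-7e and miR-125a (chr1:56486981-56487653, plus strand). There miR-99b, let-7e and miR-125a-5p were higher in oligodendrocytes by 3.08, 2.78 and 2.58. The partner arms miR-99b* and miR-125a-3p were higher in microglia, at -2.41 and -2.16. In oligodendrocytes these partner arms averaged -5.73 and -3.89, below miR-99b at -1.51 and miR-125a-5p at -1.02. In microglia they averaged -3.32 and -1.73, above miR-99b at -4.59 and miR-125a-5p at -3.60. miR-99b stood at -1.49, -1.57 and -1.47 in oligodendrocytes and at -4.54, -4.06 and -5.17 in microglia (adjusted p = 0.000191). miR-99b* stood at -5.95, -5.40 and -5.84 in oligodendrocytes and at -3.98, -2.85 and -3.14 in microglia (adjusted p = 0.000923). The arms of this hairpin thus ran opposite ways on all 6 arrays.

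Opposite arms were an exception among hairpins. Both arms were tested for 36 pairs matched by name, and both passed the adjusted p in 24, of which 21 went the same way, among them miR-9 with miR-9* and miR-142-3p with miR-142-5p. The files place both arms side by side for 32 pairs, and among these both passed in 22, with 20 in the same direction and 2 in opposite directions. The 3 that went opposite ways were miR-99b, miR-125a and miR-138. miR-138* stood at -4.42, -3.77 and -3.14 in microglia and at -6.21, -6.64 and -6.44 in oligodendrocytes, a 6.29-fold difference (adjusted p = 0.000683) against at least 75-fold the other way for miR-138. miR-125a-3p stood at -2.47, -1.13 and -1.59 in microglia and at -4.01, -3.65 and -4.01 in oligodendrocytes (adjusted p = 0.00204). For miR-99b*, miR-125a-3p and miR-138* microglia array 1 was the lowest of its group. The files place miR-138 on chromosome 19 and miR-138* on chromosome 8, so that pair is matched by name and not by locus. The same holds for miR-219-5p with miR-219-2-3p and for miR-7a with miR-7a*, while no position was used for miR-340. A cause for the opposite directions was not tested.

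**Figure D5:**
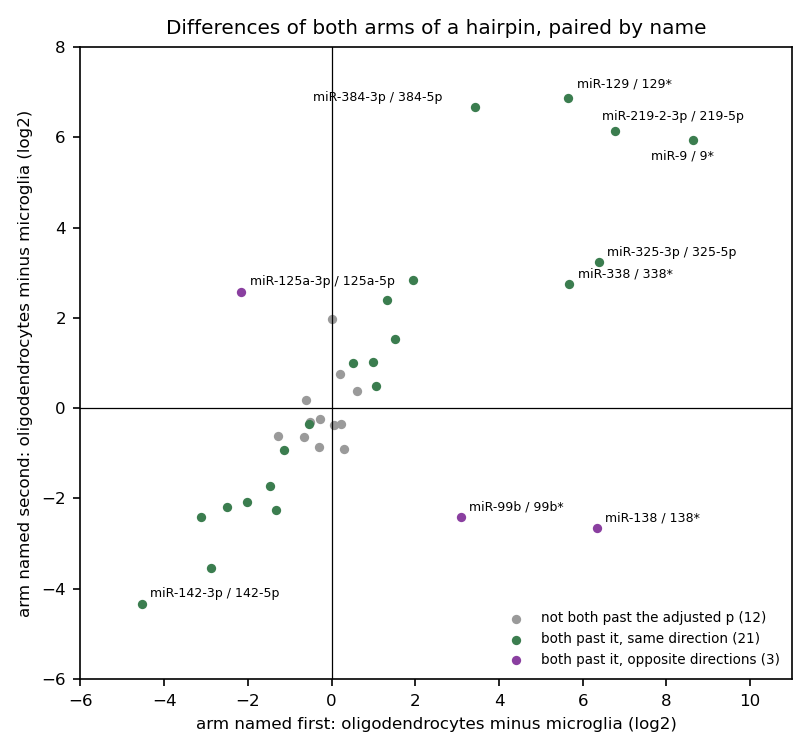
Difference of 1 arm of a hairpin (horizontal) against that of its partner arm (vertical), as oligodendrocytes minus microglia in log2, for the 36 pairs of arms matched by name. Of the 24 with both arms past the adjusted p, 21 lie in the quadrants of equal sign, and miR-99b, miR-125a and miR-138 lie in the quadrants of opposite sign.

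Lists with few tested members gave the following. The array holds 42 miRNAs from the imprinted Dlk1-Dio3 domain, which is active in neurons. Of these 5 were tested, 2 were higher in oligodendrocytes and 1, miR-134, in microglia (median 0.17). Over all 206, 28.6% were called in each direction. miR-134 was at -1.13 (adjusted p = 0.0116), and its call was lost without scaling (-0.58, adjusted p = 0.109). miR-127 of this domain stood at -6.85, -5.53 and -6.90 in oligodendrocytes and was on no microglia array, at least 1.63-fold higher, and its difference was -0.27 after normexp background correction (adjusted p = 0.394) and 0.39 with the floor at the 5th percentile (adjusted p = 0.369). miR-494 stood at 0.27, 1.78 and 0.47 against -0.62, -0.16 and -0.65 (log2 1.32 ± 0.426 SE, adjusted p = 0.034). Its call was lost without microglia array 1, 2 or 3 (adjusted p = 0.0898, 0.0612 and 0.09), and without oligodendrocyte array 2 the difference fell to 0.85, under 2-fold. The mesenchymal miR-199a-3p was 4.64-fold higher in oligodendrocytes (adjusted p = 0.00764) but 0.11 after normexp correction (adjusted p = 0.63), and 1 of 3 microglia arrays detected it. Of the miRNAs that mark astrocyte cultures, miR-449a was on no oligodendrocyte array and at least 5.84-fold higher in microglia, miR-34b was at 0.84 (adjusted p = 0.00251), and miR-31, miR-143 and miR-34c did not reach 3 of the 6 arrays. Of the Hox-linked miRNAs, miR-10a-5p at 0.73 and miR-196c at -0.88 were not called. miR-10a-5p passed at 1.49 without microglia array 3, where the remaining microglia arrays sat at the floor.

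Levels in the other cultures were set beside the calls. Of the 59 miRNAs higher in oligodendrocytes, 31 had an astrocyte mean within 1 log2 of the oligodendrocyte mean and 13 had one within 1 of the microglia mean and over 1 below oligodendrocytes. Of the 59 higher in microglia, 17 had an astrocyte mean within 1 of the microglia mean and 33 had one within 1 of the oligodendrocyte mean and over 1 below microglia. Neurons exceeded oligodendrocytes by over 1 for 22 of the first 59 and exceeded microglia by over 1 for 3 of the second. miR-150, miR-200c and miR-141 lay far above astrocytes and neurons alike, whereas miR-21, at 4.27 in astrocytes, did not. These counts describe the called miRNAs and were not tested. The median GC content of the mature sequences was 45.5% for 36 called in oligodendrocytes, 47.6% for 35 called in microglia and 43.5% for 38 not called.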

How the data were processed

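Per the file headers, the authors scanned 1-colour Agilent rat miRNA arrays with Agilent Feature Extraction 9.5.3.1 on build rn4, which gave spots a background-subtracted intensity and called each miRNA detected or not, with arrays left unscaled. A deposited table of the series gives log2 values whose scaling the labels do not state, and it served only as an alternative. Here non-outlier spots were averaged per probe and probes per miRNA, divided by a 75th percentile, taken on each array over 119 miRNAs that all 13 arrays detected, floored at -8.04 and taken to log2. The 6 arrays were fitted with limma 3.58.1 in R 4.3.3 (lmFit, eBayes), with Benjamini-Hochberg adjustment over 206 miRNAs. A call needed an adjusted p under 0.05 and a difference of 1 in log2. Where no array of the lower group detected a miRNA, the fold is a lower bound against that group's lowest detected levels, each raised to the probe's own value where that was higher. For miR-130b and miR-449a the own value was higher on each array, so the measured fold is given. All probes of a miRNA had one sign for 105 of 117 called miRNAs with 2 or more probes. Tables used Python 3.11.15. The number of arrays limits the precision.

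The miRNAs, lists and tests were chosen with earlier results of these data known. Named miRNAs were the 12 with the largest called difference in each direction, the oligodendrocyte and myeloid lists, the 2 with the largest difference in each other list, the brightest 5 overall and among those not passing, and opposite arms. Further members of the families, the neuron list and the clusters were named after their values were seen. Lists not given by count above included miR-99/100 with miR-125 (4 of 9 higher in oligodendrocytes, 2 in microglia). The list of miR-130a, miR-130b, miR-301a, miR-301b, miR-148b-3p and miR-152 gave 1 and 3 of 6. The list of miR-15b, miR-16, miR-195 and miR-497 gave 1 and 2 of 4, and that of miR-23/27/24 none and 4 of 6. Over all 206, 28.6% were called in each direction. The fit was tested on simulated data. Alternatives changed the background correction, scaling, probe summary, floor, filter, fit and arrays used.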

Additional observations from a re-analysis of the deposited data

How the results depend on the processing

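Under 20 alternatives, the count higher in microglia stayed between 40 and 63, within 1.5 times of 59. The count higher in oligodendrocytes ran from 50 to 79 except under 2 of them. It was 27 where detection on all 6 arrays was required, which by construction removes miRNAs of one cell type. It was 25 with normexp background correction, which adds 50 to every intensity and so narrows differences of dim miRNAs, and 65 of 118 calls were kept and 7 had the other sign. It was 27 where detection on all 6 arrays was required, which by construction removes miRNAs of one cell type. Of these 7, miR-127 and miR-450a turned to -0.27 and -0.01, and the others were not among the named miRNAs. Of named miRNAs that had passed the adjusted p alone, miR-17-3p, miR-20a*, miR-34b and miR-99a* turned under normexp to -0.30, -0.16, -0.26 and -0.22. Unscaled, miR-25, miR-93, miR-30e and miR-30e* turned to 0.10, 0.07, 0.01 and 0.22. None of these turned values was past the threshold. Leaving out each array gave 52 to 64 miRNAs higher in oligodendrocytes and 57 to 61 higher in microglia. Against a median difference of 0.06, the median was -0.28 with normexp, -0.13 with the 75th percentile over all miRNAs, 0.18 with that over miRNAs detected on all 6 arrays and 0.61 unscaled.

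Same-numbered arrays of the 2 types deviated together only weakly (r = 0.0782, 0.138 and 0.107), and since 1 of these was under 0.1 the numbers were not taken to pair the samples, although each array correlated best with its own number. With the replicate number as a block, 60 miRNAs were higher in oligodendrocytes and 59 in microglia. Of the 137 named miRNAs, none with a called or passing difference turned its sign under any other alternative. Dim miRNAs near the floor are the least certain.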
